A study of Arabidopsis thaliana with 18 samples.

Results

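Acetylation of lysine 14 of histone H3 (H3K14ac) was compared between seedlings of the Arabidopsis thaliana mutant pwr-2 and of the wild type (WT), from the peaks that the authors called in 1 chromatin immunoprecipitation library of each genotype. The members were the 12791 H3K14ac peaks of pwr-2 and the 11141 of WT, out of 111600 peaks in the 9 peak lists of the series. The series measured H3K14ac in 1 library and acetylation of lysine 9 (H3K9ac) in 2 libraries of each of WT, pwr-2 and hda9-1, and its 9 input samples were not analysed here. All plants were of the Col ecotype, were harvested as seedlings at 10 days and had grown on plates at 23 °C, under days of 16 h and nights of 8 h, after a cold treatment of the seeds. WT carried no mutation named in the labels, pwr-2 carried a mutant allele of POWERDRESS (PWR, AT3G52250) and hda9-1 a mutant allele of HISTONE DEACETYLASE 9 (HDA9). Whole seedlings were used, so a peak can come from any of their cell types, and a mark in fewer cells cannot be told apart from a weaker mark in all of them. With 1 H3K14ac library per genotype, no H3K14ac difference has a replicate check, no test was made, and every count and ratio of H3K14ac below describes these 2 libraries.

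Acetylation of lysines in the tail of histone H3 is found mostly at the start of active genes, where acetyltransferases such as GCN5 (HAG1) add it and histone deacetylases remove it. PWR is a protein with SANT domains, which often occur in the partners of histone deacetylases, and HDA9 is a deacetylase of the class related to yeast RPD3. Plants that lack either gene are known to flower early, and HDA9 is known to act on genes of flowering, leaf ageing and the response to warm temperature. The comparison asks where along the genome the mark was found when PWR was mutated.

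The pwr-2 library was the deeper of the pair, with 1090139 reads in its peaks against 667780 in WT. Its peaks covered 17.37 Mb against 14.86 Mb, and both had a median width of 1200 bp. The median peak held 74 reads in pwr-2 (22 to 501) and 52 in WT (18 to 287), or 66.7 and 48.0 reads per kb. In both libraries 93.4% of the covered bases lay in genes. Of 5 mesophyll marker genes, CAB1, CAB2, RBCS1A, LHCB2.1 and PSBO1, none had an H3K14ac base in either library. The same was true of the 3 phloem, 3 guard cell, 3 epidermis, 3 pollen and 4 seed markers, so these peaks do not show the makeup of the tissue. Of 6 root markers, GL2 was covered in both libraries and CASP1 over 610 bp in pwr-2 only. The targeted gene was marked in both libraries, with 663 bp of PWR covered in each, so that its mark does not distinguish the genotypes.

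Merging the peaks of both libraries gave 13488 regions, of which 9821 (72.8%) held peaks of both, 2678 (19.9%) were found only in pwr-2 and 989 (7.33%) only in WT. Regions found only in pwr-2 were narrower than the shared regions, with a median of 800 bp against 1600 bp, and held 14.6% of the reads of pwr-2. Regions found only in WT had a median width of 1200 bp and held 7.36% of the WT reads. The median distance from a pwr-2-only region to the nearest WT peak was 3000 bp, and 310 regions (11.6%) lay within 1000 bp of one. For WT-only regions the median distance to a pwr-2 peak was 2600 bp, and 168 (17.0%) lay within 1000 bp. Peaks that shared a base or touched were merged, so regions of one library alone are separate from the other's peaks by the rule. Most of them lay more than 1000 bp from the nearest such peak.

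The regions of one library alone were its weaker ones. The pwr-2 reads were scaled to WT depth by the reads in shared regions (divided by 1.51). Their median density was then 45.7 reads per kb in shared regions and 39.0 in pwr-2-only regions. In WT-only regions the median WT density was 36.1 reads per kb, against 48.0 over all WT peaks. At WT depth, 520 of 2674 pwr-2-only regions (19.4%) would have held fewer reads than the weakest WT peak of the same width, and 156 (5.83%) at least as many as the median WT peak of that width. None of 987 WT-only regions would have fallen below the weakest pwr-2 peak of the same width at the depth of pwr-2, and 182 (18.4%) would have reached its median peak. When the pwr-2 peaks below the weakest WT peak of their width were left out, a setting chosen after seeing the data, 2154 regions remained only in pwr-2 and 1356 were only in WT.

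**Figure D1:**
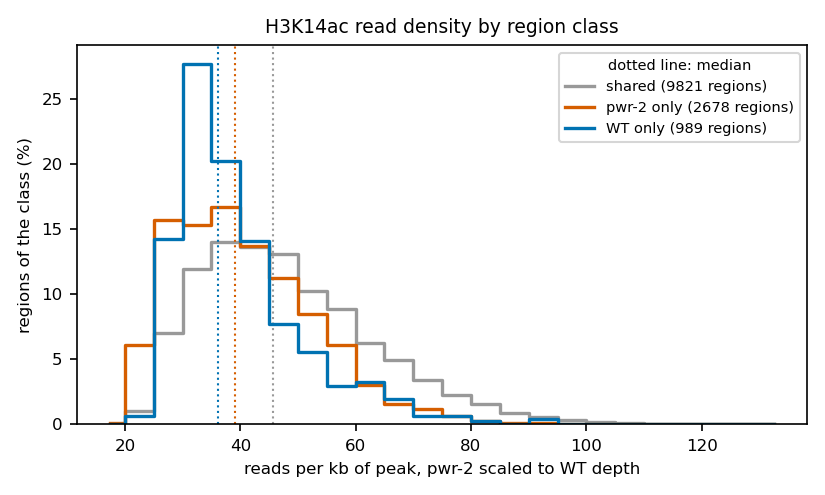
Read density of H3K14ac regions, in reads per kb of peak with pwr-2 scaled to WT depth (x axis), against the percentage of the regions of each class (y axis), for shared, pwr-2-only and WT-only regions. Shared regions are shown by their pwr-2 reads. Dotted lines mark the medians, 45.7 for shared regions, 39.0 for pwr-2 only and 36.1 for WT only, and the 3 distributions overlap over most of their range.

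In the shared regions, those that differed most in reads also differed in covered length. Scaled reads were at least 2-fold higher in pwr-2 in 305 of 9821 shared regions (3.11%) and at least 2-fold lower in 358 (3.65%), so 46.0% of the regions past 2-fold were higher. Scaling to the reads in all peaks instead moved the median log2 ratio by -0.12, and 28.6% of the regions past 2-fold were then higher. All 305 higher regions were covered over a longer stretch in pwr-2, by a median factor of 4, and 357 of the 358 lower regions over a shorter one, by a median factor of 0.333. Per covered base, none of the 305 and 1 of the 358 were still past 2-fold, but these were chosen by total reads. Over all 9821 shared regions, reads per covered base were at least 2-fold higher in pwr-2 in 160 and lower in 238, so that 40.2% of the regions past 2-fold were higher. Over all shared regions the covered length was longer in pwr-2 in 4614, equal in 1786 and shorter in 3421. At the 1404 peaks with identical ends in both libraries, the log2 ratio of scaled reads ran from -0.74 to 0.95 with an SD of 0.25, and none reached 2-fold. These peaks were kept because both libraries gave them the same ends, which leaves out regions whose extent differed, so their narrow spread says nothing of the other regions.

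**Figure D2:**
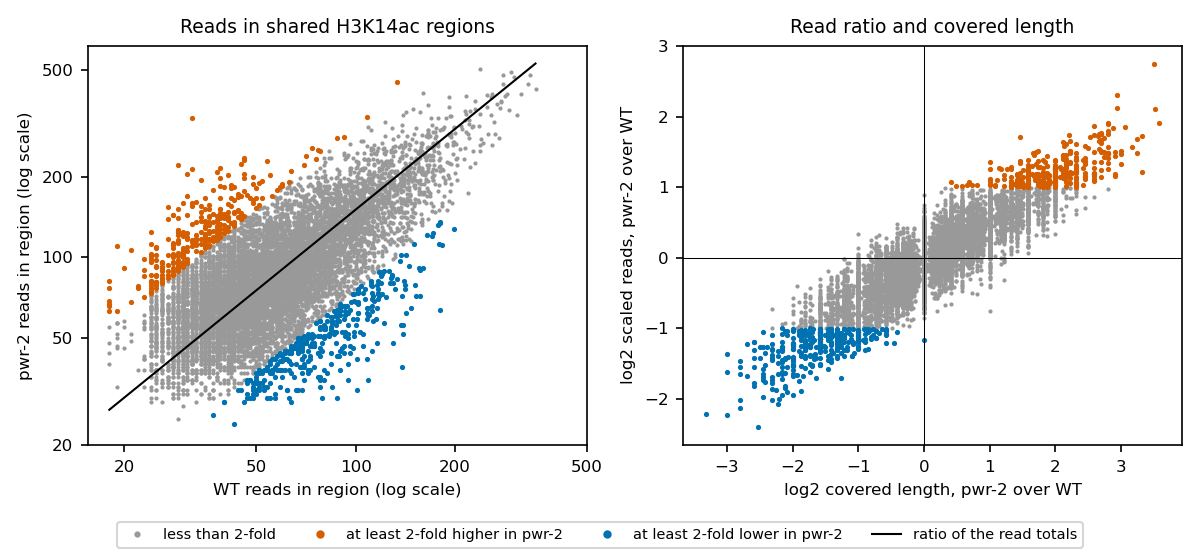
Left, reads in each of the 9821 shared H3K14ac regions in WT (x axis, log scale) and pwr-2 (y axis, log scale), with the line of the ratio of the read totals. Right, log2 ratio of covered length (x axis) against log2 ratio of scaled reads (y axis), pwr-2 over WT, where the 305 regions at least 2-fold higher lie at longer covered length and 357 of the 358 lower regions at shorter covered length.

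Of 37899 nuclear genes, 14787 (39.0%) were marked in pwr-2 and 12230 (32.3%) in WT. A gene counted as marked where 50% or more of a 500 bp window at one of its ends lay in peaks. In a gene shorter than 500 bp the window was the whole gene. Both libraries marked 10651 genes (28.1%). A further 4136 genes were marked in pwr-2 and not in WT (10.9%), called gained here, and 1579 in WT and not in pwr-2 (4.17%), called lost. Of the gained genes, 3180 (76.9%) had no base in a WT peak, and of the lost genes 1151 (72.9%) had none in a pwr-2 peak. The remaining gained and lost genes had peaks of both libraries over the gene, with the end window marked in one of them, and examples are given below. With pwr-2 peaks kept, densest first, up to the covered length of WT, 3313 genes were gained and 2190 lost. Without the pwr-2 peaks that at WT depth fall below the weakest WT peak of their width, 3538 were gained and 1911 lost, so gains outnumbered losses in each of these settings.

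Protein-coding genes made up 3577 of the gained and 1317 of the lost genes, which is 13.0% and 4.80% of all protein-coding genes. Long non-coding RNA genes were gained in 7.70% and lost in 3.74%, and microRNA genes in 6.75% and 2.45%. Small nucleolar RNA genes, whose products guide the modification of ribosomal RNA, had the largest share of gains among the 12 gene types, 67 of 287 (23.3%), with 23 lost (8.01%). Pseudogenes were rarely marked at all, and 1.05% of them were gained. Gained genes were spread over the 5 chromosomes, from 9.60% of the genes of chromosome 2 to 11.2% of those of chromosome 1, and lost genes made up 3.95% to 4.44%.

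Genes of at least 1 kb were cut into 5 equal zones from both ends to the middle. In kept genes, 44.3% of the outermost zone and 27.1% of the innermost lay in WT peaks, with 46.9% and 27.0% in pwr-2. In gained genes, pwr-2 peaks covered 41.9% of the outermost and 29.2% of the innermost zone, close to the values of kept genes. Lost genes were covered more evenly in WT, with 43.0% outermost, 51.4% in the next zone and 44.0% innermost. The rule for gained and lost looks at gene ends, so the outermost values are set by it and are no finding.

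The gained genes with a symbol, no WT base and the most pwr-2 reads, 12 in number, had roles from RNA binding to ion transport and defence. The regulator RCD1 (AT1G32230), a partner of many transcription factors in stress responses, was covered over 5200 of its 5529 bp by 1 pwr-2 peak of 183 reads (TAIR10 chr1:11612201-11617400) and over 0 bp in WT and hda9-1. This was the weakest of the 15 pwr-2 peaks of its width, at 35.2 reads per kb, and the gain was not called without the weakest 10% of peaks. The disease resistance gene RPS2 (AT4G26090), an immune receptor for a bacterial effector, held a pwr-2 peak of 157 reads (chr4:13224601-13228000) and no WT peak. ADK1, an adenosine kinase, held 129 pwr-2 reads (chr3:3012001-3014600) and RLP1, a receptor-like protein, 121 (chr1:2269801-2272000), again with none in WT. These 4 genes were the ones of the 12 whose whole region had no WT peak.

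The other 8 were touched by at least 1 pwr-2 peak that also overlapped a WT peak beside the gene. In GLR3.4 and BET9 a second pwr-2 peak over the gene was separate from it, and their region values are sums over 2 regions. RR18, a response regulator of the cytokinin pathway, lay in a region of 220 pwr-2 reads over 4600 bp and 29 WT reads over 600 bp, a scaled ratio of 5.04 (95% interval 3.41 to 7.70, counting error only). AtRZ-1c, an RNA-binding protein, lay in a region of 223 pwr-2 and 45 WT reads, a ratio of 3.29 (2.38 to 4.64). For WRKY60, a transcription factor of defence, the region held 181 and 65 reads, a ratio of 1.85 (1.39 to 2.49). At WT depth, RR18's region held 31.8 reads per kb of peak in pwr-2 and 48.3 in WT, and that of WRKY60 50.1 and 81.2. The covered stretch was longer in pwr-2 and its density lower, in all 8 genes, by a factor of 0.425 to 0.703. GLR3.4, a glutamate receptor-like channel, BET9, PLA2A, a lipid acyl hydrolase, MAP1C, a methionine aminopeptidase, and chx28, a cation exchanger, had region ratios from 1.56 to 4.57. In hda9-1 the covered length was 1613 bp of WRKY60, 3272 bp of RPS2, 1000 bp of ADK1 and 1969 bp of RR18. It was 1701 bp of AtRZ-1c, 1352 bp of GLR3.4, 800 bp of BET9 and 1718 bp of PLA2A. For MAP1C, chx28 and RLP1 it was 600, 1800 and 701 bp, and for RCD1 0 bp. The hda9-1 values share their WT library with the comparison and are given for named genes only.

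The 12 lost genes with the most WT reads included transporters and receptors. MLO13, a membrane protein of the family of the mildew susceptibility gene MLO, lay in a WT peak of 159 reads (chr4:12574801-12579600) and had none in pwr-2. AHG11, a mitochondrial RNA-editing protein named for its abscisic acid phenotype, was covered over 3000 bp by 98 WT reads (chr2:18505201-18508200). The transporter ABCA10 held 97 reads, the cytochrome P450 CYP71A19 113, FRO5, a ferric reductase family member, 94, MYB96, a transcription factor of wax synthesis and drought, 81, POP2, a transaminase of gamma-aminobutyrate, 77, and TBL43 75. None of these 8 genes had a pwr-2 peak anywhere in the region. In the other 4, CHX19, RLP31, PP2-A1 and GLR2.1, pwr-2 kept a shorter peak beside the gene, with scaled region ratios of 0.35 (0.26 to 0.46), 0.53 (0.43 to 0.65), 0.85 (0.66 to 1.11) and 0.44 (0.31 to 0.61). The WT regions of the lost genes held 26.9 to 49.5 reads per kb, and the pwr-2 regions of the 12 gained genes 23.4 to 50.1 at WT depth. Of the 12 lost genes, 6 were still lost after the weakest 10% of peaks of each library were removed, against 11 of the 12 gained genes. In hda9-1, CHX19, RLP31 and GLR2.1 were covered over 786, 800 and 1742 bp, and the rest of the 12 lost genes over 0 bp.

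**Figure D3:**
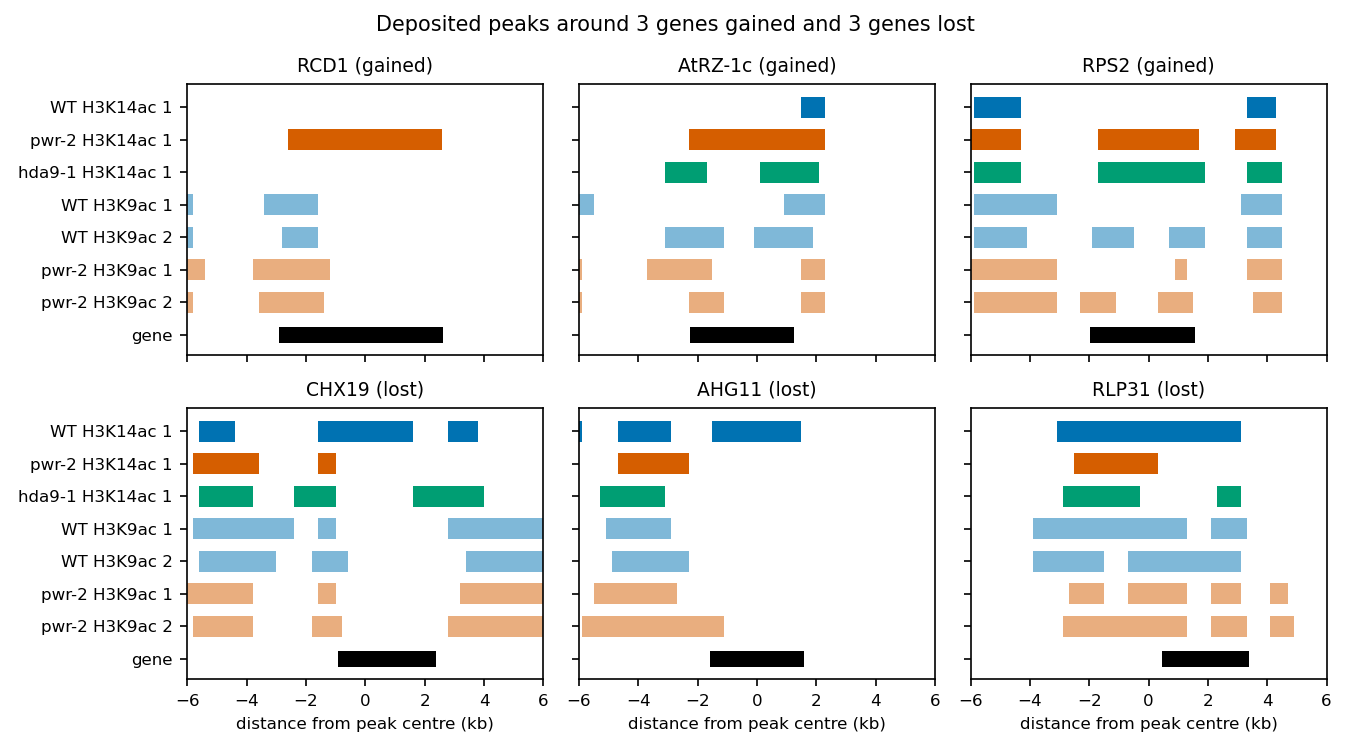
Deposited peaks around 3 gained genes (RCD1, AtRZ-1c, RPS2) and 3 lost genes (CHX19, AHG11, RLP31), as distance from the centre of the H3K14ac peak in kb (x axis), with 1 row for each library and the gene as a black bar. Full colours are H3K14ac and pale colours H3K9ac; the pwr-2 H3K14ac peak covers the gained genes, and the WT peak the lost genes.

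Genes with reads in both libraries and the largest ratios between them were covered over little of their length in one of the libraries. Of the 5 highest, 4 were gained and GSL03 was unmarked by the rule, and the 5 lowest were all lost. The 5 highest, NFU2, PSP, CEN2, GSL03 and ARLA1D, had gene-level WT values of 0.0880 to 5.57 RPM (reads scaled to the total in the peaks of the library), and WT peaks covered 1 to 85 bp of these genes. Over all regions that touch the gene their scaled ratios were 1.11 to 2.87. The 5 lowest were ASP3, UBP11, SYTC, THIC and CSLD1, with region ratios from 0.39 to 0.99. For CEN2 and PSP among the high genes, and ASP3 and CSLD1 among the low ones, the 95% interval of the region ratio included 1. For THIC, a thiamine synthesis enzyme, leaving out the weakest 10% of peaks turned the covered length from shorter to 55 bp longer in pwr-2.

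Flowering-time genes were gained at a share near that of protein-coding genes, among them 2 FLC-like repressors. Of 29 genes, 4 were gained (13.8%, against 13.0% of protein-coding genes), 0 lost (4.80% of protein-coding genes) and 9 kept. No base in either library was found in 13, among them FT, FLC, SVP and AGL19. The gained genes were AGL31 (MAF2) with 400 bp and 41 reads and MAF3 with 692 bp, both repressors related to FLC, FKF1, a blue light receptor, with 762 bp, and FVE, of the autonomous pathway, with 600 bp and 62 reads, and WT had 0 bp in all 4. CO, which activates FT in long days, was marked in both, with 2639 bp in WT against 439 bp in pwr-2. Its region held 112 WT and 63 pwr-2 reads, a scaled ratio of 0.37 (95% interval 0.27 to 0.51). The H3K9ac region at CO leaned the other way in total reads, without passing the test given below. Its peaks covered a longer stretch in pwr-2.

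Further flowering genes, 5 in number, are given because their values stood out when the list was read, not by the naming rule. GI, which acts before CO, had 2390 bp in WT and 590 bp in pwr-2, and LD, of the autonomous pathway, 2290 and 690 bp. MAF5 had 2000 bp and 59 reads in WT and no peak in pwr-2. SOC1 (AGL20), a target of CO, had 0 bp in WT and 1000 bp and 54 reads in pwr-2, and VRN1, of the vernalization pathway, 0 and 1600 bp. Of the 16 genes with a peak in either library, 8 were covered over more bases in pwr-2 and 6 over fewer, against 51.9% and 32.3% of all 18289 such genes. The summed length was 15260 bp in WT and 11585 bp in pwr-2, but without the weakest 10% of peaks it was 8929 and 11585 bp, so this order turned with the weak WT peaks.

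MicroRNA172 and its targets, the AP2-like repressors of flowering, had 2 gained genes of 11. MIR172e was covered over all of its 125 bp in pwr-2 and 0 bp in WT, as the edge of a shared region with a scaled ratio of 1.44 (1.11 to 1.89). MIR172a, MIR172b, MIR172c and MIR172d had no base in either library. AP2 was called gained although 600 bp were covered in both, with 40 WT and 39 pwr-2 reads, with the pwr-2 peak offset from the WT peak by 1 step of 200 bp. The 12 floral organ identity genes had no H3K14ac base in either library.

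The circadian clock list held genes of both kinds, with 2 gained (13.3%) and 3 lost (20%) of 15, against 13.0% and 4.80% of protein-coding genes. The evening genes TOC1, ELF3 and PCL1 (LUX) were covered over 1200, 1324 and 1000 bp in WT and over 0 bp in pwr-2. ELF3 and LUX are known as parts of one repressor complex of the evening, and TOC1 as a repressor of the morning genes. PRR5, a repressor that acts in the afternoon, had 0 bp in WT and 2146 bp in pwr-2, in a peak of 86 reads, and RVE1, a MYB-like factor that links clock and auxin, 0 and 1600 bp with 72 reads. CCA1, LHY, PRR9 and ELF4 had no base in either library. In hda9-1, TOC1, ELF3, PCL1 and PRR5 had 0 bp of H3K14ac and RVE1 1176 bp. For PRR5 the gain was gone without the weakest 10% of peaks, and the list had 1 to 2 gains and 1 to 4 losses across the settings tried. No source used here gives the hour of harvest, so a difference in the time of day cannot be told apart from one of genotype at these rhythmic genes.

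In the list of warm temperature and heat, 1 gene of 18 was gained (5.56%, against 13.0% of protein-coding genes) and none was lost. This gene was HSFA2, a heat-inducible transcription factor, with 0 bp in WT and 1377 bp in pwr-2. Its pwr-2 peak was sparse, at 34.3 reads per kb, and fell below the weakest WT peak of its width at WT depth. Named after their values were seen, the chaperone HSP101 was covered over 969 and 3369 bp and HSF3 (HSFA1b) over 606 and 2206 bp in WT and pwr-2. HSFA3 went the other way, with 1600 and 600 bp. PIF4 and YUC8, which drive growth in the warmth, had no base in either library.

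**Figure D4:**
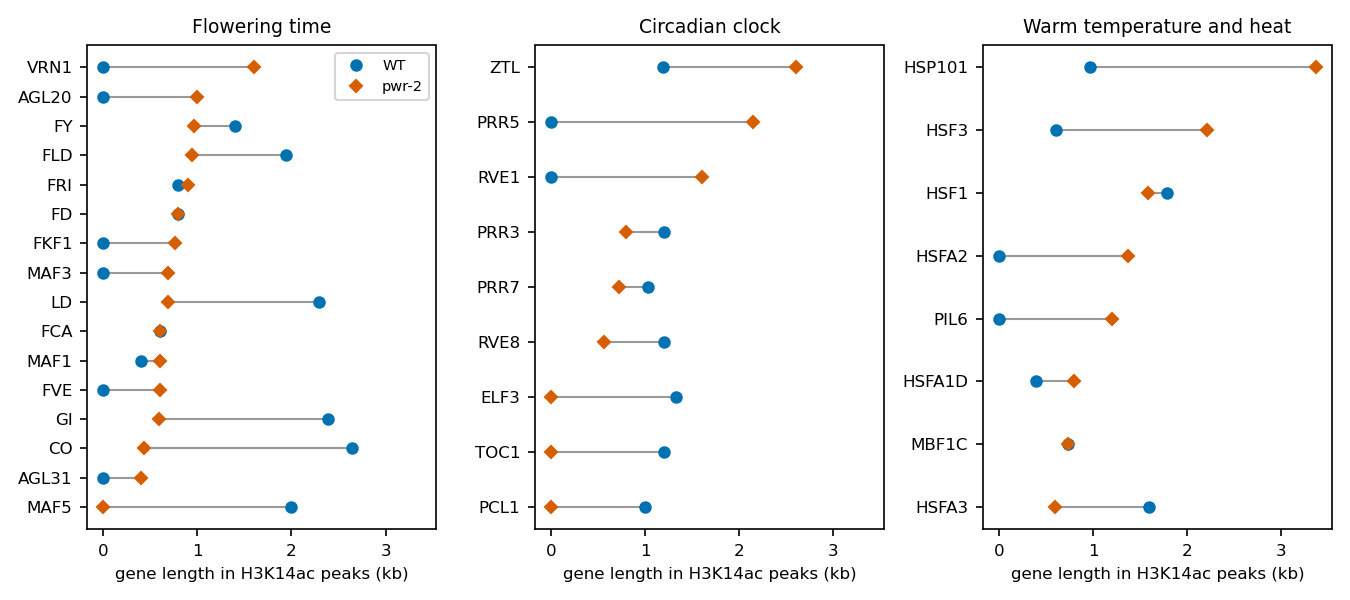
Length of each gene in H3K14ac peaks, in kb (x axis), in WT (circles) and pwr-2 (diamonds), for the genes of 3 lists with a peak in at least 1 of the libraries (y axis). TOC1, ELF3 and PCL1 lie at 0 in pwr-2 and PRR5 and RVE1 at 0 in WT, and CO is covered over fewer and HSP101 over more bases in pwr-2.

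Genes of abscisic acid, drought and cold had 4 gains and 2 losses among 27 (14.8% and 7.41%, against 13.0% and 4.80% of protein-coding genes). Across the settings tried they had 2 to 8 gains. DREB2A, a transcription factor of the drought response, was covered over 0 and 1200 bp in WT and pwr-2 with 56 reads, COR47, a dehydrin, over 0 and 1000 bp with 51 reads, and KIN2 over 0 and 543 bp. RD26, a NAC factor, had 600 bp in WT and 1809 bp in pwr-2. ABA2, an enzyme of abscisic acid synthesis, had 1200 and 0 bp. ICE1 was called lost with 1479 bp in WT and 1600 bp in pwr-2, a difference of placement. P5CS1, the proline synthesis enzyme, was not marked at its ends by the rule but had 0 bp in WT and 3400 bp and 148 reads in pwr-2, named after its values were seen. Of the 13 genes with a peak, 9 were covered over more bases in pwr-2 (69.2%, against 51.9% of all genes with a peak) and 4 over fewer.

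Immunity genes had 3 gains and 2 losses among 21 (14.3% and 9.52%, against 13.0% and 4.80% of protein-coding genes). By covered length they went the other way: of 13 with a peak, 4 were longer in pwr-2 and 6 shorter, in sum 13826 bp in WT and 12152 bp in pwr-2. Of all genes with a peak, 51.9% were longer in pwr-2 and 32.3% shorter. CBP60G and SARD1, transcription factors that raise salicylic acid synthesis, were covered over 0 and 1722 bp and over 211 and 1011 bp in WT and pwr-2, and the coreceptor BAK1 over 0 and 1200 bp with 61 reads. The kinase MPK6 had 600 and 0 bp, and PAD4, which acts with EDS1, 1400 and 400 bp. The CBP60G peak, at 34.5 reads per kb, was gone when peaks under the weakest WT peak of their width were left out. EDS1 was covered over 2819 bp in both libraries. Among the 12 jasmonate genes, none was gained or lost, against 13.0% and 4.80% of protein-coding genes. Of the 8 with a peak, 5 were covered over fewer bases in pwr-2, against 32.3% of all genes with a peak.

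In leaf senescence, 2 of 16 genes were gained (12.5%, against 13.0% of protein-coding genes) and none lost (4.80% of protein-coding genes). SAG101, a lipase-like partner of EDS1, had 0 and 902 bp in WT and pwr-2, and NYC1, a chlorophyll b reductase, 0 and 400 bp, and both were absent when the pwr-2 peaks under the weakest WT peak of their width were left out. WRKY53, which promotes senescence, had 800 bp and 38 reads in WT and 600 bp and 35 reads in pwr-2, a region ratio of 0.612 (0.375 to 0.995). WRKY57, NAP and NPX1 had no base in either library. Of 14 seed maturation genes, GEA6 was gained as the edge of a shared peak, WRI1 lost with 2258 and 1000 bp (7.14% each), and 12 had no base.

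Of 25 photosynthesis genes, 15 had no H3K14ac base in either library. For comparison, 16344 of 27444 protein-coding genes had a base in at least 1 of the libraries. In each library 24% of the photosynthesis genes were marked, against 40.3% of protein-coding genes in WT and 48.5% in pwr-2. Gains and losses made up 8% each, against 13.0% and 4.80% of protein-coding genes. RBCS1B, a Rubisco small subunit, had 0 and 434 bp in WT and pwr-2 and GAPA, a chloroplast dehydrogenase, 0 and 939 bp, the second in a shared region with a ratio of 2.02 (1.59 to 2.59). LHCB5 had 394 and 0 bp, and PSBO2 was called lost with 1200 and 1000 bp. Of the 10 genes with a peak, 7 were covered over fewer bases in pwr-2 and 2 over more. Of all genes with a peak, 32.3% were covered over fewer and 51.9% over more. Housekeeping genes were 8 kept, 2 gained and 2 lost of 14, 14.3% each, against 13.0% and 4.80% of protein-coding genes. Among them ACT8 had 0 and 600 bp, and the elongation factor gene AT5G60390 had 1800 and 0 bp.

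The genes that add or remove acetyl groups were mostly marked in both libraries, 20 of 27, against 9747 of 27444 protein-coding genes. HDA9 itself was covered over 600 bp with 38 reads in WT and 800 bp with 77 reads in pwr-2, a scaled ratio of 1.35 (0.90 to 2.04). HD2C and HDT4, members of a plant-specific deacetylase family, were gained, with 0 bp in WT and 1231 and 800 bp in pwr-2. The acetyltransferase HAM1 was called lost with 800 and 600 bp in WT and pwr-2 and a region ratio of 0.81 (0.57 to 1.17). HAF2, an acetyltransferase related to TAF1, had the longest stretch, 4780 and 7780 bp, and was named after its values were seen.

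Shoot meristem genes had 1 gain and 3 losses of 15 (6.67% and 20%), and auxin transport and synthesis 1 and 1 of 14 (7.14% each). Of protein-coding genes 13.0% were gained and 4.80% lost. KNAT2 had 0 and 279 bp in WT and pwr-2, KNAT6 560 and 0 bp, REV 1400 and 800 bp and KAN 338 and 800 bp, the last a loss by placement alone. The auxin receptor TIR1 was called gained with 2000 and 1030 bp and ARF19 lost with 1000 and 600 bp, again with peaks in both libraries.

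The SPL genes are a family of transcription factors of which many are held back by microRNA156 until the plant matures. Of 13, 4 were gained (30.8%, against 13.0% of protein-coding genes), 0 lost and 4 kept. Only 2 of the 4 had no WT base, and 1 gene was gained when 80% of the end window had to be covered and 2 when any base of the gene counted. All 8 with a peak were covered over more bases in pwr-2, against 51.9% of all genes with a peak. In sum they had 5413 bp in WT and 17902 bp in pwr-2. SPL10 had 542 and 3431 bp, SPL1 1400 and 3800 bp, SPL11 1000 and 2600 bp, SPL14 800 and 2600 bp, and SPL2 0 and 2000 bp. With pwr-2 held to the covered length of WT the sum was 5413 and 7600 bp, and 4 genes were longer and 3 shorter, so the count of 8 rests on sparse pwr-2 peaks.

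Ribosomal protein genes had 15 gains and 2 losses of 66 (22.7% and 3.03%), against 13.0% and 4.80% of all protein-coding genes. Of the 59 with a peak, 39 were covered over more bases in pwr-2 (66.1%), against 51.9% of all genes with a peak. The gains held cytosolic members such as RPL18 (0 and 1000 bp), RPS5A (0 and 1200 bp) and RPS13A (0 and 885 bp), and plastid members such as PSRP2 (0 and 587 bp). Between 12 and 19 were gained in the settings tried, and 32 genes were longer against 14 shorter with pwr-2 held to the covered length of WT. Auxin response factors had 6 gains and 2 losses of 21 (28.6% and 9.52%, against 13.0% and 4.80% of protein-coding genes). They had only 3 gains when 80% of the end window had to be covered. By covered length 5 were longer and 6 shorter in pwr-2, in sum 13200 bp in WT and 12482 bp in pwr-2. Of the gained genes, ARF1, ARF8, ARF9 and ARF11 had no WT base, while ARF6 and ARF2 had longer peaks in WT than in pwr-2. UDP-glycosyltransferase genes had 10 gains and 2 losses of 58 (17.2% and 3.45%, against 13.0% and 4.80% of protein-coding genes). Of the 10, 5 had WT bases too, and 2 to 5 genes were lost across the settings tried.

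Cytochrome P450 genes, oxidases of hormone and secondary metabolism, were 23 gained and 26 lost of 224 (10.3% and 11.6%), in sum 104710 bp in WT and 91408 bp in pwr-2. Of protein-coding genes 13.0% were gained and 4.80% lost, and across the settings tried 25 to 41 of the P450 genes were lost. Expansin genes, which loosen the cell wall, were 1 gained and 4 lost of 31 (3.23% and 12.9%, against 13.0% and 4.80% of protein-coding genes). However, 3 of the 4 lost, EXPA1, EXPA6 and EXPA10, kept a peak in pwr-2. Histone genes were 3 gained (14.3%, against 13.0% of protein-coding genes), HTR12, HTB9 and HTA2, and 0 lost of 21. MIR genes were 22 gained and 8 lost of 326 (6.75% and 2.45%, against 10.9% and 4.17% of all genes). These shares describe lists of 11 to 326 genes in 1 pair of libraries, and none was tested against all genes.

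**Figure D5:**
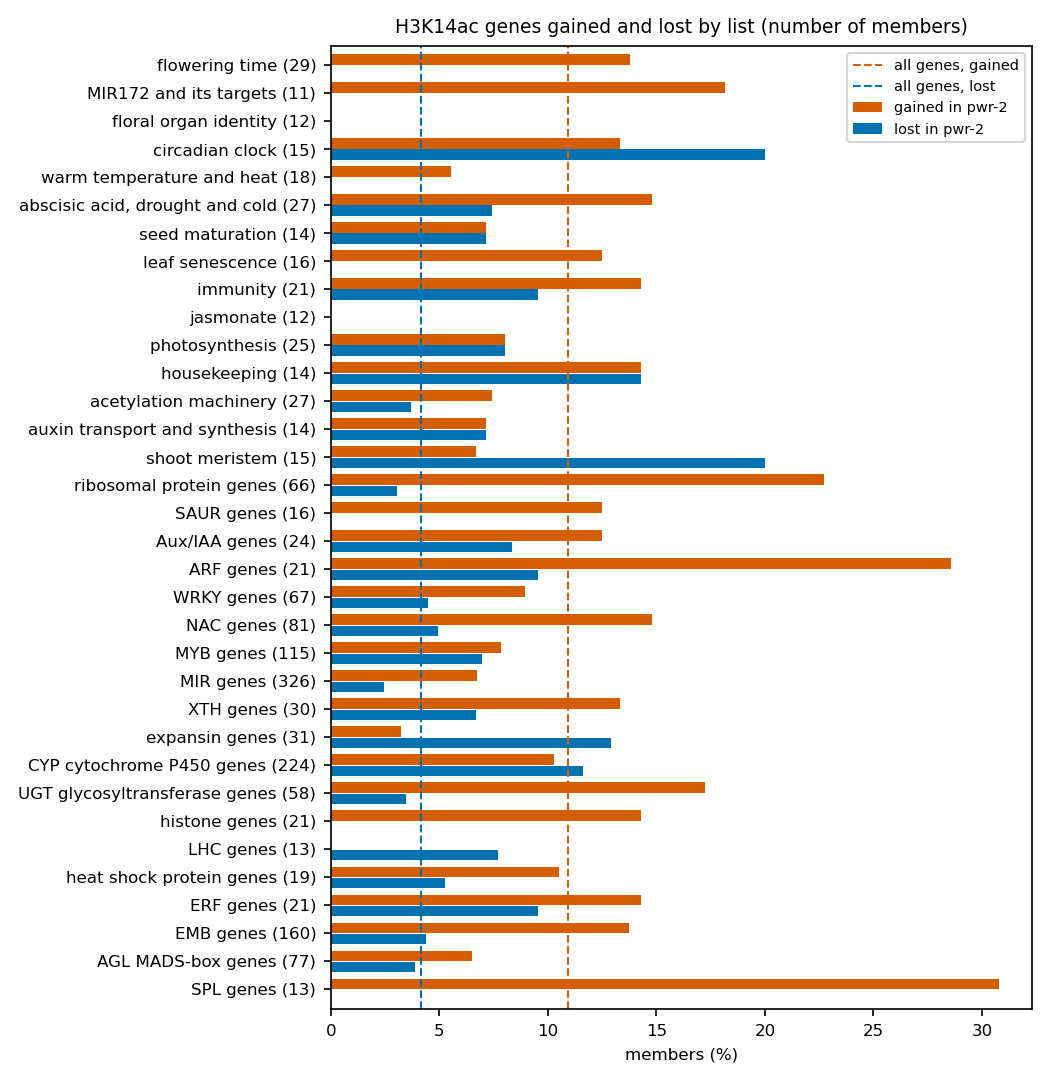
Percentage of the members of each of 15 gene lists and 19 families (y axis, number of members in brackets) that gained (orange) or lost (blue) H3K14ac in pwr-2. Dashed lines give the same over all genes, 10.9% gained and 4.17% lost. Over protein-coding genes, not drawn, the shares were 13.0% and 4.80%. SPL genes have the longest gained bar, and the circadian clock and shoot meristem lists the longest lost bars.

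The H3K9ac libraries of the same genotypes, which had no part in choosing the genes, showed how often the H3K14ac classes carried the other mark. H3K9ac marked 78.6% of the kept genes in both WT libraries, 51.6% of the gained, 39.8% of the lost and 10.6% of the unmarked genes. Regions followed the same order, with a peak in all 4 H3K9ac libraries in 77.9% of the shared, 52.3% of the pwr-2-only and 35.8% of the WT-only regions. Of the gained genes, 20.1% had no H3K9ac mark in any of the 4 libraries, and of the lost genes 30.5%. Many genes gained in H3K14ac thus carried H3K9ac in the wild type already.

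No H3K9ac difference between the genotypes passed the test at these genes. edgeR's quasi-likelihood test over 8792 regions with a peak in all 4 libraries, adjusted by Benjamini-Hochberg, called 0 higher and 0 lower in pwr-2 (0%), with a smallest adjusted p of 0.236. An unadjusted p under 0.05 was found in 853 regions (9.70%), and DESeq2 called 54 of 6235. Over genes that gained H3K14ac, 0 of 2152 regions were called, the median log2 difference was 0.02 and 220 (10.2%) had an unadjusted p under 0.05. Over genes that lost it, 0 of 677 were called, the median was 0.02 and 70 (10.3%) were under 0.05. CO, covered over fewer H3K14ac bases in pwr-2, lay in an H3K9ac region with a log2 difference of 1.08 in total reads. That region (chr5:5161001-5171000) was covered over 3400 and 3000 bp in the WT libraries and 9200 and 9000 bp in pwr-2. Its difference thus goes with a longer covered stretch and is not a value of the gene alone. In the same edgeR test the unadjusted p of that region was 0.000717 and the adjusted p 0.347.

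By RPM over each gene, both pwr-2 H3K9ac libraries lay above both WT libraries in 16.2% of the gained genes and below them in 22.1%. Over all 21903 genes with H3K9ac reads the shares were 13.3% and 24.1%, over kept genes 13.2% and 28.8%, and over lost genes 11.2% and 27.2%. The 2 pwr-2 H3K9ac libraries held 3757931 and 8873855 reads in peaks and the WT libraries 1948253 and 2223676, a difference of depth that goes with genotype and whose part in these shares was not tested. Of the 12 named gained genes, WRKY60 lay higher in both pwr-2 libraries (63.2 and 30.4 against 15.03 and 0.468 RPM) and ADK1 and RLP1 lower. Of the 12 named lost genes, 4 lay lower in both pwr-2 libraries and 1 higher. FRO5, lost in H3K14ac, had 28.2 and 28.3 RPM of H3K9ac in WT and 0 in both pwr-2 libraries. Gained list genes, named here without a rule, went both ways. CBP60G had H3K9ac over 522 and 1322 bp in the pwr-2 libraries and over 0 bp in both of WT, and COR47 lay higher in pwr-2. PRR5 lay lower, with 31.6 and 23.0 RPM in WT against 11.4 and 0 in pwr-2, as did FVE and AP2. TBL43 went against its H3K14ac, with 51.4 and 46.2 RPM in pwr-2 against 6.05 and 0 in WT.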

How the data were processed

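The submitters' processing notes name Bowtie, SICER and the TAIR10 build; no source used here gives versions or thresholds. For each library the authors deposited 1 peak list, with chromosome, start, end and a whole number that was read as a count of reads per peak. No header says so. The reading rests on the values: the number rose with peak width (Spearman correlation 0.867 over WT and 0.822 over pwr-2 H3K14ac peaks). Ends lie in steps of 200 bp, and positions are counted from 1. The fewest reads in a peak were 18 in WT and 22 in pwr-2, and weaker sites are not detectable at this depth.

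Genes came from RefSeq's annotation of TAIR10.1 (37899 nuclear genes, 10871 with a symbol), which was used for names, lengths and overlap, not for coordinates; it gives no strand here, so both gene ends were used. Placement was checked: 93.4% of covered bases lay in genes, and 69.2% to 72.9% after shifts of 2000 or 5000 bp.

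Peaks of both libraries were merged where they shared a base or touched. Reads of shared regions were scaled by their totals, with a pseudocount of 0.5 reads and a fold limit of 2 in place of a test. A peak's reads were shared among genes by overlap and given as RPM of all reads in the peaks of the library. Ratio intervals are exact conditional binomial intervals at 95% and cover counting error only. H3K9ac counts of WT and pwr-2 were tested with edgeR 4.0.16 (quasi-likelihood, TMM, two-sided, adjusted p under 0.05; R 4.3.3), tested on simulated data, with DESeq2 1.42.0 as an alternative; the labels call these replicates biological, and p-values measure the spread between these libraries. Python 3.11.15 did the rest. No label says what replicates of the same number share beyond that number.

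Named genes were the 12 gained and 12 lost protein-coding genes with a symbol, no base in the other library and the most reads, the 5 with the largest and the 5 with the smallest ratio at 50 or more reads, gained or lost list members, and genes the study is known for. The genes, 15 lists, 7 marker lists and 19 families were chosen with earlier results of these data known. The families left out 2 genes that share the symbols ARF1 and SPL2 but not the function. No sequences are shown.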

Additional observations from a re-analysis of the deposited data

How the results depend on the processing

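Over the 9 alternative settings for genes, gains ranged from 3313 to 4402 and losses from 1317 to 2190. The 1317 is the count over protein-coding genes only, a smaller set of genes. Of 49 alternatives for the main counts, 40 stayed within 1.5 times. Keeping pwr-2 peaks to the covered length of WT gave 1585 WT-only regions, and counting a peak as shared only with 50% of its bases in the other library gave 4164 pwr-2 and 2116 WT peaks. Per covered bp, 160 shared regions were at least 2-fold higher and 238 lower. For H3K9ac, where the main count is 0, DESeq2 called 54 regions (37 higher), the test per covered bp 2, and leaving out 1 library in turn 0 to 8, the 8 without WT replicate 1. With the replicate number as a replicate block, 22 regions were called (16 higher). Same-numbered libraries correlated at 0.178 in their deviations, and libraries of crossed numbers at -0.178. With 2 libraries per genotype these values mirror each other, so they cannot show whether same-numbered libraries shared a batch. The cause of the shifts in these calls was not tested. For single genes, THIC reversed to 55 bp without the weakest 10% of peaks, 332 of 364 values kept direction and call and 31 moved. One limit is 1 library per genotype: a weak peak just above one threshold and below the other counts as a gain or a loss.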

Other observations

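Photosynthesis genes without H3K14ac in either library carried H3K9ac. All 15 of them had H3K9ac bases in both WT libraries. LHCB2.1, LHCB3, LHCB6, LHCA1, LHCA3, RBCS1A and RBCS2B, which encode light-harvesting proteins and Rubisco small subunits, were covered over their whole length in all 4 H3K9ac libraries of WT and pwr-2, among them LHCA1 over 1673 bp and RBCS1A over 1510 bp. CAB1 had 716 and 516 bp of H3K9ac in the WT libraries and 0 bp in both pwr-2 libraries. By RPM, 24.1% of the 21903 genes lay lower in both pwr-2 libraries than in both of WT.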
